A study of Mus musculus with 9 samples.

Results

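The 45 genes described here serve DNA replication and cell division: 27 act in or just before S phase, when the genome is copied, and 18 act in mitosis, when the copies are separated. The rule lists them by name and uses no measured value, but the list was drawn up with earlier results of these data known. The brightest probe set annotated to that gene alone stood for each, out of 18193 genes with such a probe set on the array. In all, 44 members had a value, from 96 probe sets, and 42 passed the filter on dim probe sets (25 of S phase and 17 of mitosis). The mitotic cyclin Ccnb1 had no probe set annotated to it alone in the annotation used here and has no value. The brightest probe sets of the S-phase regulator E2f1 and the thymidylate synthase Tyms were below the filter. A further Tyms probe set, annotated also to Tyms-ps, was left out. The 9 arrays measured scraped mucosa of male C57BL/6J mice, an inbred and unmodified laboratory strain. The mice were 9 weeks old when they changed from standard chow to a diet high in fat, and they ate it for 2 weeks. The diets are named for their fat: HF-PO held palm oil, HF-OO held olive oil and HF-SO held safflower oil, and in this order their P/S value increased, the ratio of polyunsaturated to saturated fat. SI1, SI2 and SI3 are 3 parts of equal length, SI1 nearest the stomach and SI3 nearest the colon, and RNA of the same 6 mice was pooled for each diet and part. A segment is thus represented by 3 pools that differ in diet, a diet by 1 pool in each segment, and every group shares a high-fat diet; low-fat arrays were not analysed here. The pooling hides the spread between mice, so errors below describe 3 pools.

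The lining of the small intestine renews itself without pause. Stem cells at the base of the crypts give rise to rapidly dividing progenitors in the crypt wall, which leave the cell cycle as they move onto the villi, so in a scraping of the mucosa these genes come mainly from crypt cells, with a share from dividing lymphocytes. In dividing cells, origins of replication are licensed by loading the MCM helicase before S phase, the helicase is switched on and DNA is copied, and the cyclin A and cyclin B kinases then lead the cell through mitosis. Many S-phase genes are targets of E2F factors, and many mitotic genes carry a cell cycle homology region (CHR) near CCAAT boxes, the site of the factor NF-Y.

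Promoter sequences are printed for 7 members to show these words in genes whose signals moved together and in genes whose signals did not. RefSeq promoters of build GRCm38.p6, 300 bases long from 250 before to 50 after a start, were at hand for 37 of the 45 members. Words were searched on both strands: TTTCCCGC, TTTGGCGC, TTTCGCGC and TTTGCCGC for E2F, TTTGAA and TTTAAA for the CHR, and CCAAT. No word contains another, matches can share bases, and 1 pair of matches of different kinds did so among 110 matches in the members. An E2F word was present for 9 of 22 S-phase members and 1 of 15 mitosis members, against 2.60% of all 27025 genes with a promoter. A CHR word was present for 14 of 15 mitosis members and 8 of 22 S-phase members, against 30.6% of all genes. CCAAT was present for 13 of 15 mitosis members and 14 of 22 S-phase members, against 41.1% of all genes, and CHR and CCAAT occurred together for 12 of 15 and 5 of 22, against 12.2%. Of the members that were higher in SI3 than in SI1, 5 of 19 with a promoter had an E2F word, 12 a CHR word and 16 CCAAT; of the other tested members, 5 of 15, 9 and 10. A match describes the letters in this window and is not a shown binding site. The 250 bases before the start are given 5′ to 3′ on the gene's strand, with matches in capitals. Matches in the 50 bases after the start were counted but are not printed. Among the genes shown these are TTTAAA in Rrm2, TTTGAA in Ccnb2 and CCAAT in Mcm5. Mcm6 (chr1:128359706-128359955, minus strand) and Mcm5 (chr8:75109259-75109508, plus strand) encode helicase subunits and carry E2F words. Cdk1 (chr10:69352913-69353162, minus strand) carries all 3 kinds of word, as does Mcm5. Ccnb2 (chr9:70421555-70421804, minus strand) and Top2a (chr11:99024190-99024439, minus strand) are mitosis members with repeated CCAAT. Repeated CCAAT is also present in Mcm6, Mcm5 and Cdk1. Rrm2 (chr12:24708004-24708253, plus strand) was the member that fell, and Pcna (chr2:132253181-132253430, minus strand) the brightest one with a level signal.
Mcm6: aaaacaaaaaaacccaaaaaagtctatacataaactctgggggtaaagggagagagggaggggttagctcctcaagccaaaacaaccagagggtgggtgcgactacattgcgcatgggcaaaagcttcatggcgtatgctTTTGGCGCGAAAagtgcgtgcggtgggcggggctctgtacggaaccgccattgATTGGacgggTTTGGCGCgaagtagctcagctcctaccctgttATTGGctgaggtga
Mcm5: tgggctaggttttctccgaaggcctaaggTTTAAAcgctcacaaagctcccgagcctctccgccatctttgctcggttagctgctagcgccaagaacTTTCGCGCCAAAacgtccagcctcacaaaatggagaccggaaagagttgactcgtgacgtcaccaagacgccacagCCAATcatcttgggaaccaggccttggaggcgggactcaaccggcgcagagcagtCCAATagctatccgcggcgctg
Cdk1: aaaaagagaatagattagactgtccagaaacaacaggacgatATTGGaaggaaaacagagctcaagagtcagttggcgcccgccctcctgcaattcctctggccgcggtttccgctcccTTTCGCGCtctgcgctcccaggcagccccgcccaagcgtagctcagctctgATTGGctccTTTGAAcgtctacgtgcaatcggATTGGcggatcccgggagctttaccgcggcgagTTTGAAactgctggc
Ccnb2: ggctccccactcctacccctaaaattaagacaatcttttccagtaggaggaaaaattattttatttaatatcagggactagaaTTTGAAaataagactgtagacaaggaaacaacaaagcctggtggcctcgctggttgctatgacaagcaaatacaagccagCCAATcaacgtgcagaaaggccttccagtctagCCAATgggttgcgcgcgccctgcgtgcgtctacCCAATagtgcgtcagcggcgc
Top2a: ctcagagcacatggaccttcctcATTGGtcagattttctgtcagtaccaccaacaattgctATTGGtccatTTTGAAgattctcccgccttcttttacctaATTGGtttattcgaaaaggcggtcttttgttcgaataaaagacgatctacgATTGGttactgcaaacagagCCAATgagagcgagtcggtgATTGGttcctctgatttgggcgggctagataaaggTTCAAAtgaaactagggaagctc
Rrm2: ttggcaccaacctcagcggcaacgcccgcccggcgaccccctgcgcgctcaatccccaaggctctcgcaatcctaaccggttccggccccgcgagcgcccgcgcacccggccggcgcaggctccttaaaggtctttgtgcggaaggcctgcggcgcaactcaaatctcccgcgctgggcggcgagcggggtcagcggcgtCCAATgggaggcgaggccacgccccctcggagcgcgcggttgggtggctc
Pcna: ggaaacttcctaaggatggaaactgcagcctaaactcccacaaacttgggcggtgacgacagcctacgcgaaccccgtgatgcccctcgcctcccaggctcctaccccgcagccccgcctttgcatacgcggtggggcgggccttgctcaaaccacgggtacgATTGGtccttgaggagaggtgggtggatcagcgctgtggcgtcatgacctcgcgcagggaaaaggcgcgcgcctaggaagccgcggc

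Along the intestine, most mitosis members and part of the S-phase members had a higher signal at the distal end. Between SI3 and SI1, 24 of 42 members were higher and 1 was lower, with limma's moderated test at an adjusted p under 0.05, against 25.2% of all 10977 genes tested that were higher and 20.4% that were lower. Among mitosis members 14 of 17 were higher and 0 lower, and among S-phase members 10 of 25 were higher and 1 lower; the difference between these classes was not tested. The median difference, on the scale of log2(signal + 16), was 0.60 over the mitosis members and 0.27 over the S-phase members, against 0.07 over all genes. All 3 arrays of SI3 lay above all 3 of SI1 for 24 members and below them for 2, against 32.8% and 25.2% of all genes. The mean signal increased from SI1 through SI2 to SI3 for 27 members, 16 of mitosis and 11 of S phase, an order found in 33.3% of all genes. The middle segment differed little from SI1, with 1 member higher and 1 lower, against 7.23% and 7.83% of all genes. Between SI3 and SI2, 10 members were higher and 0 lower, against 11.5% and 11.9% of all genes, and an F test over the 3 segments called 20 of 42, against 42.0%.

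**Figure D1:**
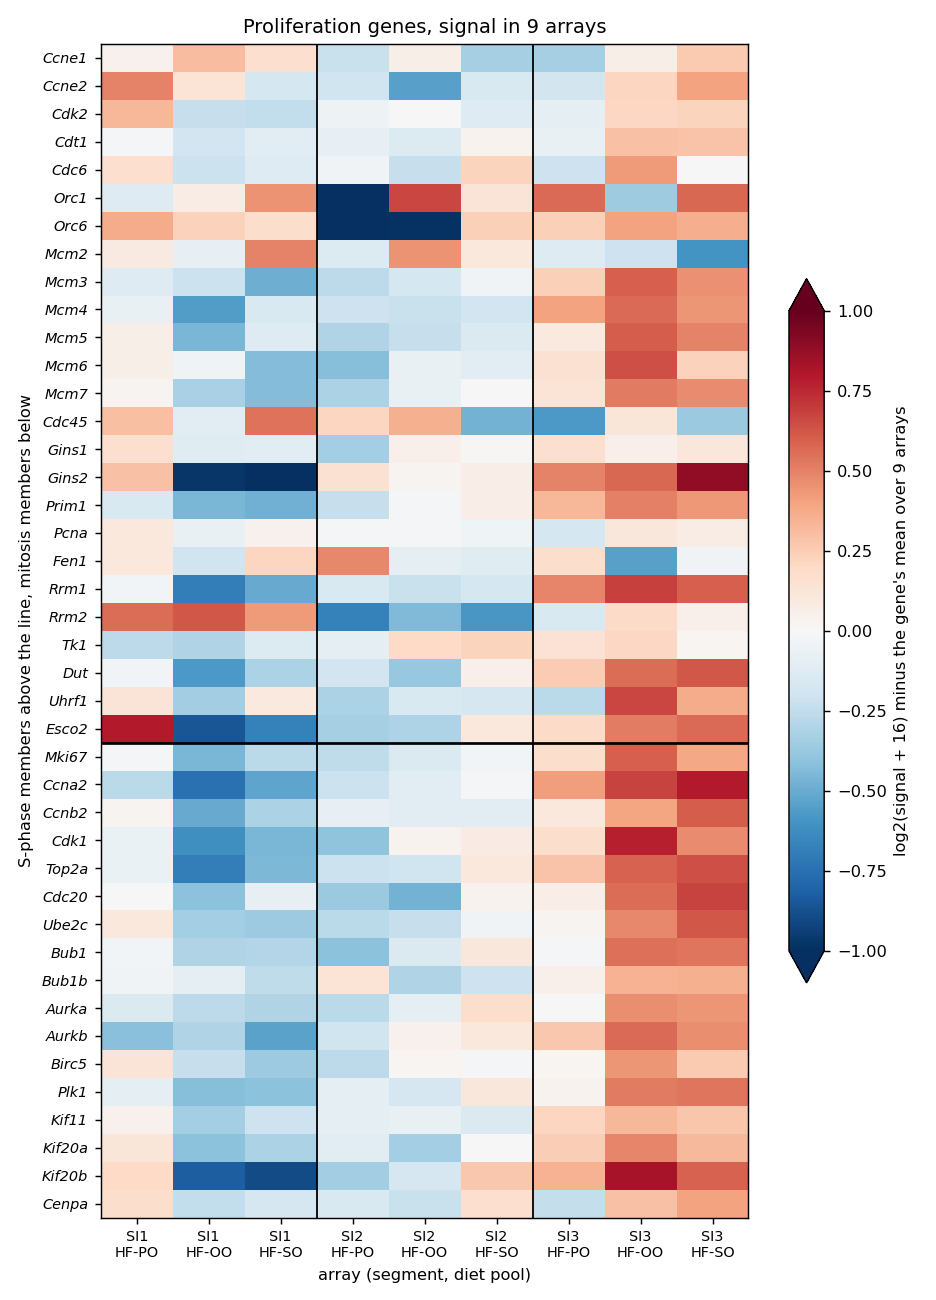
Signal of the 42 tested members in each of the 9 arrays, as log2(signal + 16) minus the gene's mean over the arrays (colour scale cut at -1 and 1), with S-phase members above the line and mitosis members below. Most rows are red in the SI3 arrays of HF-OO and HF-SO, where 21 and 10 members had their highest signal of the 9 arrays, and blue in the SI1 arrays of the same pools, where 17 and 11 had their lowest.

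The count of members higher in SI3 depended on single pools and arrays. It became 5 without the HF-OO pool and 6 without the HF-SO pool, when 12.0% and 14.7% of all genes were higher, and 29 without the HF-PO pool, when 19.0% were. Leaving out a single array gave 8 without SI1 of HF-OO, 8 without SI1 of HF-SO, 8 without SI3 of HF-OO and 10 without SI3 of HF-SO, when 17.5%, 20.3%, 16.9% and 17.6% of all genes were higher. With no filter on dim probe sets 8 of 44 were higher, against 8.67% of all genes. The median difference over the members stayed between 0.38 and 0.75 over these and the other alternatives, against 0.01 to 0.08 over all genes.

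The members that prepare origins did not pass the test between the ends of the intestine. S-phase entry depends on cyclin E and its kinase: Ccne1 differed by -0.18 (SE 0.14), Ccne2 by -0.01 (SE 0.23) and Cdk2 by 0.16 (SE 0.18). E2f1, which activates S-phase genes and was below the filter, had signals from 52.5 to 85.0. Of the licensing genes, Cdt1 and Cdc6, which load the MCM helicase, differed by 0.27 (SE 0.12) and 0.13 (SE 0.20). The origin recognition subunits Orc1 and Orc6 differed by 0.13 (SE 0.57) and 0.08 (SE 0.28), and their arrays scattered widely within SI2. None of these 7 tested members passed in any of the 3 segment comparisons, although for Orc6 the difference between SI3 and SI2 was 0.93 (SE 0.28, adjusted p = 0.0546). Its SI2 signals were 66.6, 69.2 and 182.6 and its SI3 signals 183.1, 206.5 and 201.5 (HF-PO, HF-OO and HF-SO in turn, here and in all later lists).

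By their brightest probe sets, 5 subunits of the MCM helicase, a ring of 6 related proteins that unwinds DNA, were higher in SI3 than in SI1. Mcm4 averaged 451.6 ± 80.1 in SI1, 463.5 ± 5.40 in SI2 and 752.0 ± 47.7 in SI3 (SD, n = 3 pools here and below), a log2 difference of 0.73 between the ends (SE 0.13, adjusted p = 0.00460). Mcm3 rose by 0.71, Mcm7 by 0.62, Mcm5 by 0.58 and Mcm6 by 0.48. For these 5 subunits every SI3 array of the brightest probe set lay above every SI1 array. Second probe sets of Mcm4, Mcm5 and Mcm6 gave 0.28, 0.44 and -0.11 between the ends (adjusted p = 0.464, 0.0967 and 0.63), and none passed. The further tested probe sets of Mcm3 passed, as did those of Mcm7 except the dimmest, at 0.39 (adjusted p = 0.083). Mcm2 went from 863.4 ± 186 in SI1 to 612.5 ± 104 in SI3, a log2 difference of -0.48 that did not pass (SE 0.22, adjusted p = 0.118), although it was negative in all 3 pools. A second probe set of Mcm2, nearly as bright, had the opposite sign between the ends, at 0.19 (SE 0.16, adjusted p = 0.392), and was higher in SI2 than in SI1 by 0.66 (adjusted p = 0.0382). Between SI3 and SI2, Mcm3, Mcm4 and Mcm5 were also higher, by 0.59, 0.68 and 0.62. The calls between the ends were lost under 5 of 12 alternatives for Mcm5 and 7 of 12 for Mcm6, and with the mean of all its probe sets the difference for Mcm6 was 0.05 (adjusted p = 0.824).

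Of the factors that switch the helicase on, Gins2, a subunit of the GINS complex, had the largest difference of all members. Its signals were 198.6, 73.3 and 44.4 in SI1, 178.6, 162.8 and 167.5 in SI2, and 231.1, 245.2 and 308.4 in SI3. The log2 difference between SI3 and SI1 was 1.39 (SE 0.37, adjusted p = 0.0202), a 2.63-fold change. The SI1 array of HF-PO stood apart from the other SI1 arrays and above the SI2 arrays, yet all SI3 arrays were higher still. Gins1, another subunit, differed by 0.13 (SE 0.14), and Cdc45, the partner of GINS in the active helicase, by -0.52 (SE 0.28, adjusted p = 0.175), so neither passed. A second probe set of Cdc45, of about the same brightness, had the opposite sign, at 0.20 (SE 0.16, adjusted p = 0.36).

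At the fork itself, Prim1, the catalytic subunit of the primase that starts each new strand, had signals of 428.5, 343.8 and 339.3 in SI1, 406.3, 475.1 and 501.6 in SI2, and 605.6, 687.6 and 651.9 in SI3. It rose by 0.79 between the ends (SE 0.13, adjusted p = 0.00326) and by 0.48 from SI2 to SI3 (adjusted p = 0.0424), with no overlap between SI3 and either other segment. A second, dimmer probe set of Prim1 gave 0.62 (SE 0.25, adjusted p = 0.0836) and 0.57 (adjusted p = 0.154) and did not pass. Its SI3 array of HF-PO, at 229.1, lay below its SI1 array of HF-PO, at 252.7. The sliding clamp Pcna, often used as a proliferation marker, did not follow: its signals were 6005, 5300 and 5770 in SI1, 5506, 5497 and 5433 in SI2, and 4932, 6059 and 5879 in SI3. The difference between the ends was -0.02 (SE 0.11, adjusted p = 0.887), its sign changed with the scaling, and the segments overlapped. Fen1, the nuclease that trims Okazaki fragments, differed by -0.18 (SE 0.15) and did not pass either.

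The nucleotide supply held the clearest contrast, because the subunits of ribonucleotide reductase, which makes deoxynucleotides, moved in opposite directions. Rrm1, the large subunit, had signals of 533.2, 330.9 and 379.0 in SI1, 487.3, 464.2 and 479.2 in SI2, and 770.0, 883.6 and 833.1 in SI3. It rose 2.00-fold between the ends (log2 1.00, SE 0.16, adjusted p = 0.00246), and each SI3 array was above every other array. Rrm2, the small subunit, whose level normally follows the cell cycle, had signals of 977.5, 1021 and 886.4 in SI1, 405.9, 480.9 and 434.3 in SI2, and 590.0, 752.7 and 679.6 in SI3. It fell by 1.10 from SI1 to SI2 (SE 0.09, adjusted p = 0.00101), rose by 0.59 from SI2 to SI3 (adjusted p = 0.00616) and was 0.51 lower in SI3 than in SI1 on the log2 scale (a difference of -0.51, adjusted p = 0.00501). The 3 segments did not overlap, and no other member passed the test as lower in SI2 or in SI3 than in SI1. The probe set used for Rrm2 is of a type whose probes can match other transcripts, and the gene's other probe sets gave -0.98 (adjusted p = 0.0119) and -1.16 (adjusted p = 0.00241) between SI2 and SI1, and -0.14 (adjusted p = 0.517) and -0.87 (adjusted p = 0.00166) between SI3 and SI1. The fall in the middle segment was thus seen with all 3 probe sets, and the lower distal level with 2 of them.

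The other enzymes of nucleotide supply were higher distally or not tested. Dut, which removes dUTP, rose by 0.78 (SE 0.16, adjusted p = 0.00799). The thymidine kinase Tk1 rose by 0.36 (SE 0.11, adjusted p = 0.0391) and was already at 535.8 ± 66.8 in SI2, next to 539.4 ± 36.9 in SI3 and 417.9 ± 26.8 in SI1. Its call was lost under 6 of 12 alternatives, among them quantile normalization (adjusted p = 0.0744) and each array centred on its median (adjusted p = 0.0791). Tyms, which makes thymidylate, had signals from 49.0 to 86.4 by the brightest probe set annotated to it alone and was not tested. A probe set shared with Tyms-ps was not examined, so these signals need not give its level. Of the remaining S-phase members, the cohesin acetyltransferase Esco2 differed by 0.67 (SE 0.39) and Uhrf1, which passes on DNA methylation after replication, by 0.30 (SE 0.23), and neither passed. A second, dimmer probe set of Uhrf1 did rise, by 0.88 (SE 0.12, adjusted p = 0.00122). Over the members' 70 probe sets above the filter, 37 were higher and 2, both of Rrm2, were lower. With 1 probe set per gene, 25.2% of all genes were higher and 20.4% lower. Of 28 further probe sets of the members, 22 had the same sign as the brightest one. The other 6, of Ccne1, Mcm2, Mcm6, Cdc45, Fen1 and Cenpa, did not pass.

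**Figure D2:**
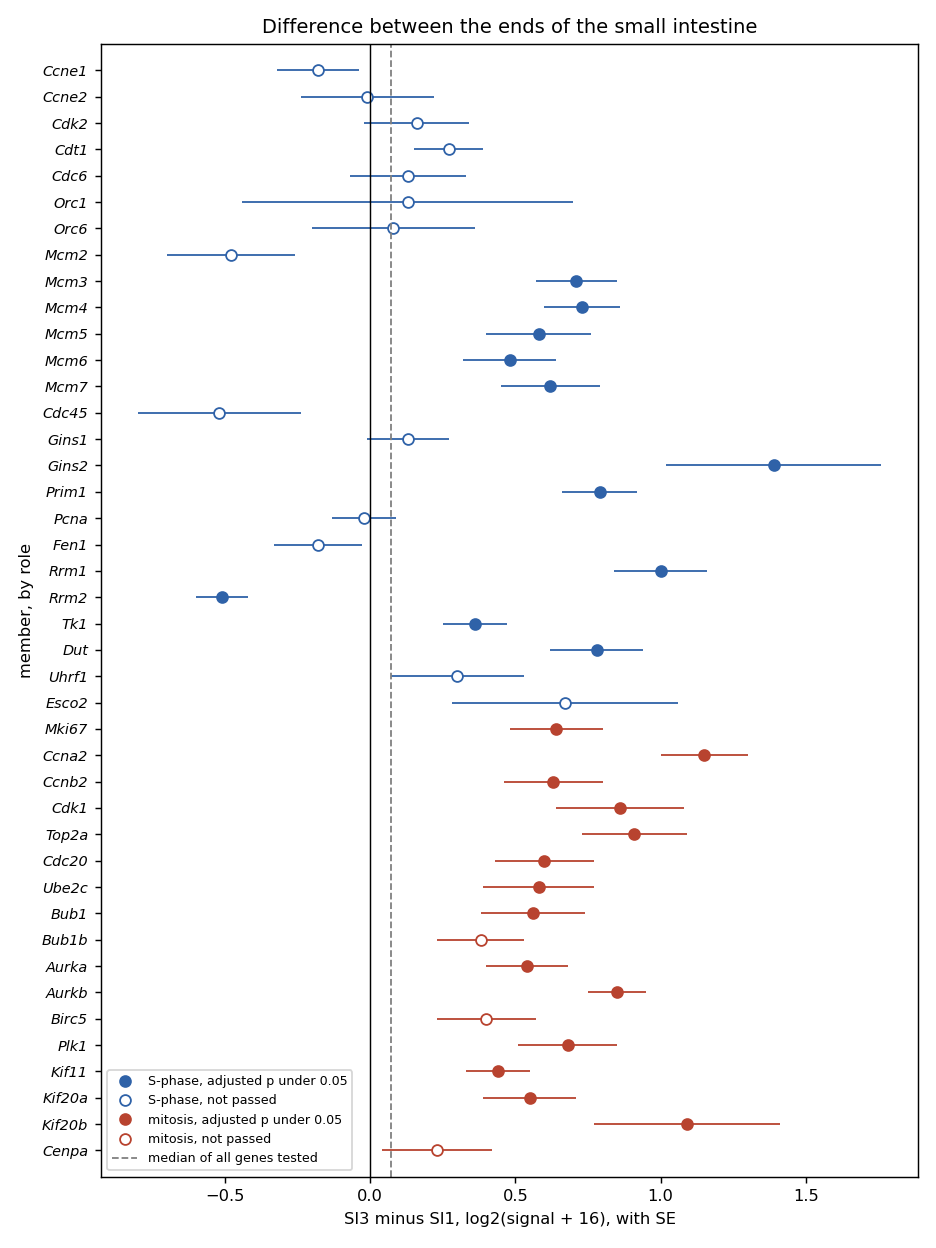
Difference between SI3 and SI1 for each of the 42 tested members, on the scale of log2(signal + 16), with its standard error from the limma model; filled points passed at an adjusted p under 0.05. Mitosis members (red) lie between 0.23 and 1.15, all above the dashed median of all genes at 0.07, whereas S-phase members (blue) run from -0.52 to 1.39.

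The mitotic cyclins and their kinase rose together. Ccna2, cyclin A2, which acts in S phase and at the entry to mitosis, had signals of 855.6, 611.7 and 712.4 in SI1, 888.9, 962.8 and 1024 in SI2, and 1392, 1668 and 1805 in SI3. Its log2 difference of 1.15 between the ends (SE 0.15, adjusted p = 0.00106) was the largest of the mitosis members, and the 3 segments did not overlap. Cdk1, the kinase that starts mitosis, had signals of 744.5, 504.8 and 565.6 in SI1, 588.9, 802.5 and 826.5 in SI2, and 886.9, 1354 and 1089 in SI3. It rose by 0.86 between the ends (SE 0.22, adjusted p = 0.0166), with SI3 above both other segments and SI1 and SI2 overlapping. Ccnb2, cyclin B2, rose by 0.63 (SE 0.17, adjusted p = 0.0210).

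Genes for the structure of mitotic chromosomes followed. Mki67, whose product Ki-67 coats mitotic chromosomes and marks cycling cells, had signals of 1371, 1008 and 1146 in SI1, 1164, 1255 and 1364 in SI2, and 1569, 2108 and 1822 in SI3. It rose by 0.64 (SE 0.16, adjusted p = 0.0159), and all SI3 arrays were above the rest. Top2a, the topoisomerase that untangles sister chromosomes, had signals of 1345, 867.5 and 1029 in SI1, 1217, 1224 and 1519 in SI2, and 1721, 2138 and 2213 in SI3. It rose by 0.91 (SE 0.18, adjusted p = 0.00613), again with SI3 above the rest, and its second tested probe set rose by 0.99 (adjusted p = 0.00439). Cenpa, the histone H3 variant of centromeres, differed by 0.23 (SE 0.19) and did not pass.

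Kinases, motors and proteolysis of mitosis also had higher signals in SI3. The chromosomal passenger kinase Aurkb had signals of 234.4, 255.9 and 214.7 in SI1, 274.9, 327.5 and 344.4 in SI2, and 387.5, 480.2 and 444.4 in SI3. It rose by 0.85 between the ends (SE 0.10, adjusted p = 0.000821), by 0.40 from SI1 to SI2 (adjusted p = 0.0448) and by 0.45 from SI2 to SI3 (adjusted p = 0.0234), and by its brightest probe set was the single member higher in SI2 than in SI1. That call between SI2 and SI1 was lost under 6 of 11 alternatives, and dimmer probe sets of Mcm2, Cdc20 and Kif11 were also higher in SI2, by 0.66, 0.58 and 0.55 (adjusted p = 0.0382, 0.037 and 0.034). Plk1 and Aurka, kinases of spindle assembly, rose by 0.68 and 0.54, whereas Birc5, the survivin subunit that works with Aurkb, differed by 0.40 (SE 0.17, adjusted p = 0.0974). The kinesin Kif20b, a motor of cytokinesis, had signals of 187.4, 83.9 and 79.1 in SI1, 122.6, 141.5 and 196.6 in SI2, and 209.1, 297.4 and 249.7 in SI3. It rose by 1.09 (SE 0.32, adjusted p = 0.0297), with its SI1 array of HF-PO well above the other SI1 arrays. The spindle motor Kif11 rose by 0.44 and Kif20a by 0.55. Cdc20 and Ube2c, which direct the anaphase-promoting complex and its ubiquitin transfer, rose by 0.60 and 0.58, and the checkpoint kinase Bub1 by 0.56, while its relative Bub1b differed by 0.38 (SE 0.15, adjusted p = 0.0756). Ube2c was the single member called higher whose SI1 and SI3 arrays overlapped, because its SI1 array of HF-PO, at 1556, exceeded its SI3 array of HF-PO, at 1477. Its call was lost under 6 of 12 alternatives, with adjusted p from 0.00704 to 0.261 over them.

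**Figure D3:**
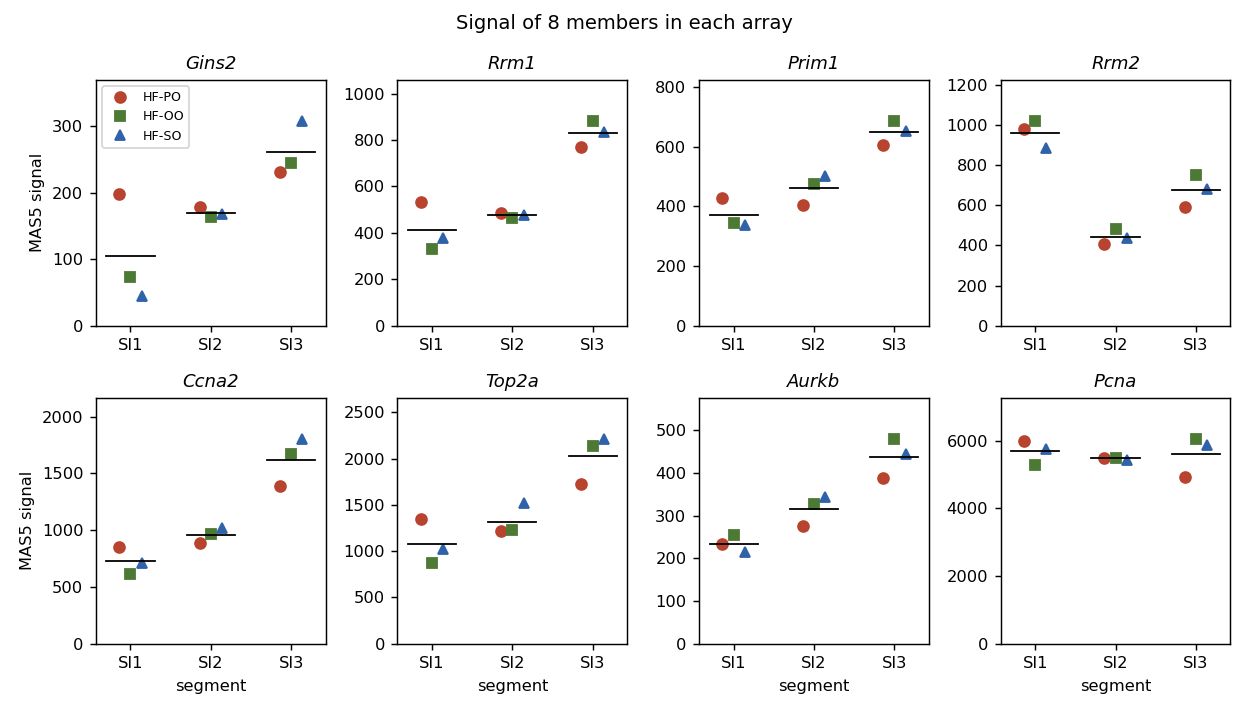
MAS5 signal of 8 members in each array, by segment and diet pool; horizontal bars are means over the 3 pools. Rrm1, Prim1, Ccna2, Top2a and Aurkb are highest in SI3 in every pool, Rrm2 is lowest in SI2, and Pcna stays between 4932 and 6059 in all 9 arrays.

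Genes of the same pathways outside the 45 were counted from lists by role. Between SI3 and SI1, 25.2% of all genes were higher and 20.4% lower. Of 36 further replication genes, 33 were tested; 16 were higher in SI3 than in SI1 and 1 was lower. The DNA ligase Lig1 rose by 0.89 and the polymerase delta subunit Pold1 by 0.74, and geminin (Gmnn), which blocks new licensing, fell by 0.27. Of 40 further mitosis genes, 37 were tested and 24 were higher and 0 lower, with Cdca8, a partner of Aurkb, up by 1.09 and the kinase Melk by 1.08.

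Markers of several cell types also differed along the intestine, and their part in the members' differences was not tested. The counts below are to be read beside the 25.2% of all genes that were higher in SI3 than in SI1 and the 20.4% that were lower. In these bulk samples a lower signal cannot be told apart between fewer cells of a type and less RNA per cell. Of the stem and crypt base markers, 7 of 10 were higher in SI3 and 1 lower, with Axin2 up by 1.73 and Rnf43 down (a difference of -0.54), while Lgr5 differed by 0.12; their summed signal was 12870 to 16390 in SI1 and 21530 to 25680 in SI3. All 5 Paneth cell markers were higher, with sums of 28630 to 37780 and 90980 to 107900. Goblet cell markers were higher in 7 of 8, with sums of 125500 to 145800 and 195400 to 209000. Enterocyte markers were higher in 2 and lower in 3 of 9, with overlapping sums of 254800 to 304400 and 247600 to 283600. Lymphocyte markers differed by type: T cell and intraepithelial lymphocyte markers were lower in 7 of 7, with sums of 14090 to 18160 and 4581 to 6909, and B and plasma cell markers were higher in 4 and lower in 2 of 8, with sums of 33590 to 34610 and 20440 to 21850. Of the 5 genes tested from the list named for germinal centre B cells, only Fcer2a and Cr2 were higher. Bcl6, S1pr2 and Rgs13 differed by 0.07, -0.28 and -0.25 and did not pass, and Mef2b and Gcsam were below the filter. Macrophage markers were lower in 5 and higher in 1 of 7, with sums of 13350 to 13880 and 8940 to 10710. Follicle-associated epithelium markers were higher in 1 and lower in 1 of 5, and smooth muscle markers were lower in 2 of 8, with sums of 10190 to 10440 and 8306 to 8529. Exocrine pancreas markers were lower in 8 of 9, with sums of 35100 to 45840 in SI1 and 3653 to 5267 in SI3. Most of the SI3 sum was Clps, the marker that did not pass, which averaged 4007 in SI1 and 4169 in SI3. The log2 differences of the other 8 lay between -7.55 and -4.36.

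The diets were compared within each segment, where each has 1 array, so these are values with no test. The palm oil pool changed its place from the proximal to the distal end: of the 3 diets it had the highest signal in SI1 for 34 of 42 members and the lowest in SI3 for 37, against 34.5% and 39.7% of all genes. Both held for 33 members, 17 of S phase and 16 of mitosis, against 14.9% of all genes. In SI2 the palm oil pool was lowest for 23 members and highest for 6, and the safflower oil pool was highest for 25, against 35.8%, 32.4% and 33.0% of all genes. The median over the members of HF-PO minus HF-OO was 0.37 in SI1, -0.06 in SI2 and -0.33 in SI3, and of HF-PO minus HF-SO 0.27, -0.23 and -0.27. Between the other diets it was smaller: HF-SO minus HF-OO had medians of 0.08, 0.07 and -0.04.

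**Figure D4:**
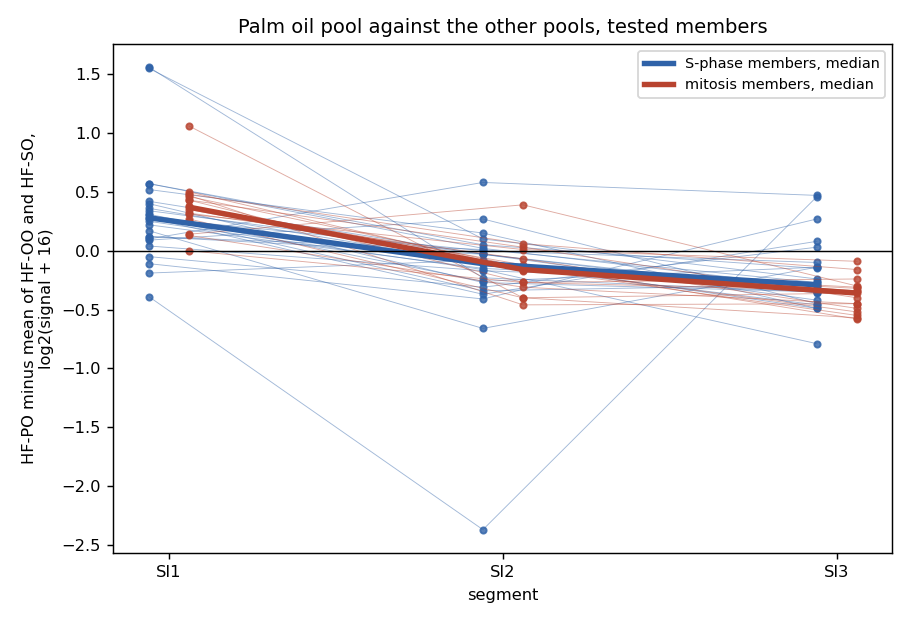
Signal of the HF-PO array minus the mean of the HF-OO and HF-SO arrays, on the scale of log2(signal + 16), for each of the 42 tested members (points joined by thin lines) and as class medians (thick lines). The medians go from 0.28 in SI1 to -0.29 in SI3 for S-phase members and from 0.37 to -0.36 for mitosis members; the low point in SI2, at -2.37, is Orc1.

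Because the same 6 mice gave all segments of a diet, the same values can be read as the difference between the ends within each pool. In the palm oil pool the members' median difference between SI3 and SI1 was 0.08, and 3 of 42 were at least 1.5-fold higher in SI3, against 11.9% of all genes in that pool. In the olive oil pool the median was 0.82 and 27 members were at least 1.5-fold higher, against 16.1%, and in the safflower oil pool it was 0.63 and 25 members, against 14.5%. The median over all genes was between 0.04 and 0.08 in the 3 pools. Cdk1 shows the pattern: in SI1 its signal was 744.5 with palm oil and 504.8 and 565.6 with the other oils, and in SI3 it was 886.9 with palm oil and 1354 and 1089 with the others. Mki67 was likewise highest with palm oil in SI1 and lowest with it in SI3. With 1 pool of 6 mice per diet, a diet cannot be told apart from its pool of mice.

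Few members were set apart by a wide margin. A member counted as set apart when its signal + 16 in 1 diet was at least 1.5-fold above or below both others. In SI1 the palm oil pool was set apart upward for 3 members, Gins2, Esco2 and Kif20b, against 0.565% of all genes. Esco2 had signals of 197.2, 52.1 and 61.1 there, so it was higher with palm oil than with either other oil. A second, dimmer probe set of Gins2 was also highest with palm oil in SI1. In SI2 the palm oil pool was lower for Orc1, with signals of 24.0, 234.0 and 155.4, against 1.12% of all genes. A second probe set of Orc1, below the filter, had 50.5, 42.1 and 61.0 there, and palm oil was not lowest. The safflower oil pool was higher in SI2 for Orc6, against 0.437%, and lower for Cdc45, with signals of 170.1, 189.9 and 99.8, against 0.720%. A second probe set of Cdc45, of about the same brightness, had 113.5, 155.9 and 149.1 there, and safflower oil was not lowest. In SI3 the palm oil pool was lower for Uhrf1, with signals of 248.1, 491.1 and 395.9, against 1.33%. A second, dimmer probe set of Uhrf1 had 168.6, 240.4 and 192.9 there. Palm oil was again lowest, but by less than 1.5-fold from safflower oil. The olive oil pool was lower in SI3 for Orc1, with 216.4, 106.7 and 217.9, against 1.06%. The probe set of Orc1 below the filter went the other way there, with 86.0, 148.9 and 96.4, so olive oil was highest. By the brightest probe sets, no member was set apart in the same direction by the same diet in 2 segments.

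**Figure D5:**
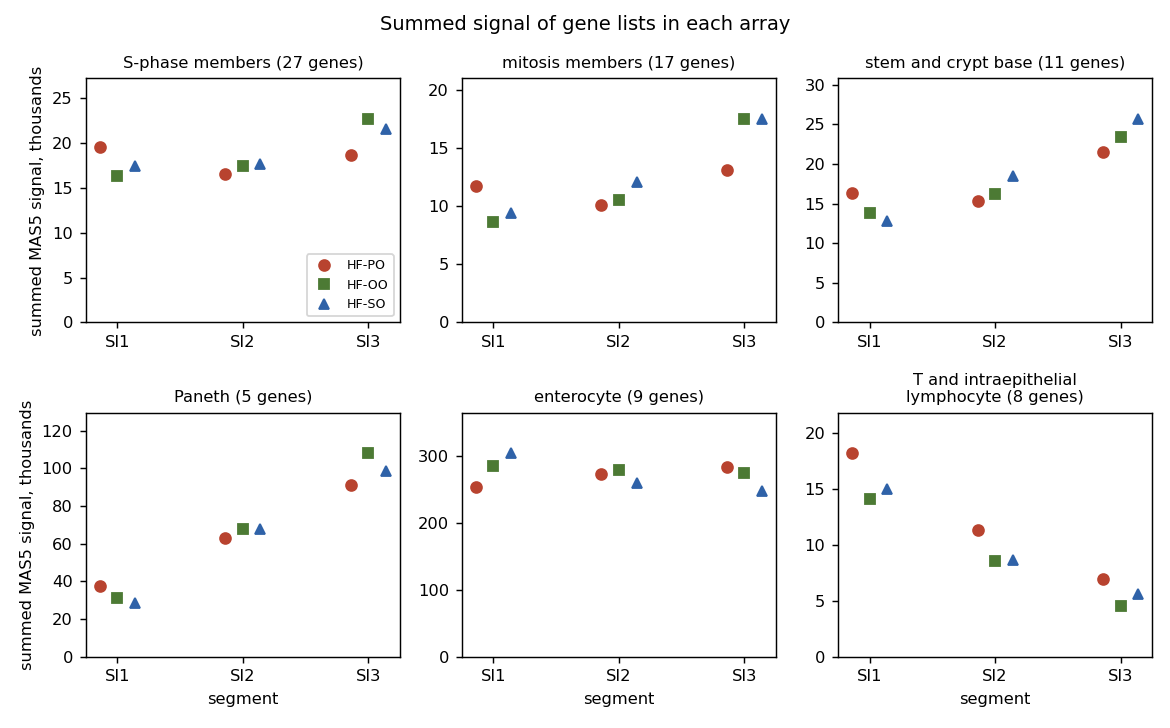
Summed MAS5 signal of 6 gene lists in each array, by segment and diet pool. The HF-PO points are the highest in SI1 and the lowest in SI3 for both member classes, stem and crypt base markers and Paneth markers. For enterocyte markers HF-PO is the lowest in SI1, at 254800, and the highest in SI3, at 283600.

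Other lists moved with the palm oil pool as well, and their part in the members' values was not tested. Over all genes, the palm oil pool was highest in SI1 for 34.5% and lowest for 35.0%. In SI3 it was highest for 32.6% and lowest for 39.7%. In SI1 it had the highest signal for 7 of 10 stem and crypt base markers, 4 of 5 Paneth markers, 7 of 7 T cell and intraepithelial lymphocyte markers and 9 of 9 exocrine pancreas markers, and the lowest for 8 of 9 enterocyte markers. The enterocyte sum in SI1 was 254800 with palm oil, 285700 with olive oil and 304400 with safflower oil, and the pancreas sum 45840, 35100 and 36730. In SI3 the palm oil pool had the lowest signal for 7 of 10 stem and crypt base markers and 4 of 5 Paneth markers and the highest for 6 of 9 enterocyte markers. T cell and intraepithelial lymphocyte markers went another way, since their sum was highest with palm oil in all 3 segments, with values of 18160, 11350 and 6909 from SI1 to SI3. The 40 further mitosis genes gave values like those of the members, with the palm oil pool highest in SI1 for 33 of 37 and lowest in SI3 for 32 of 37. For the further replication genes it was highest in SI1 for 17 of 33 and lowest in SI3 for 22 of 33.

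The arrays themselves were alike in scale: medians lay between 94.4 and 105.9, upper quartiles between 440.4 and 472.3, and 3′ to 5′ ratios of the control probe sets were 1.185 to 1.305 (beta-actin) and 0.7803 to 0.8709 (Gapdh). Enterocyte markers were bright on every array, and the 2 erythroid markers with a probe set were below the filter. With 3 pools per segment, the number of arrays sets how precise these values can be.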

How the data were processed

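The authors deposited 1 signal intensity, on a linear scale, per array and probe set; per the submitters' processing notes it comes from MAS5, with no version. The authors scaled each array to a 2% trimmed mean of 500. Of 45101 probe sets, 64 controls were left out. The platform annotation gave 34945 probe sets 1 symbol, 932 several and 9160 none. Signals were analysed as log2(signal + 16), and 22519 probe sets with a mean of at least 6.80, the median, were tested.

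Segments were compared in limma 3.58.1 (R 4.3.3) with segment and diet pool as terms, two-sided moderated tests and Benjamini-Hochberg adjustment over all probe sets tested. Diet pool entered as a block since its 3 segments were taken from 1 set of mice. Departures from segment means correlated with r from -0.05 to 0.15 within pools and -0.13 to 0.05 between them. The residual, with 4 degrees of freedom, includes whatever part of a segment difference truly varies by diet, and fold changes on this scale understate those of dim genes. Other steps ran in Python 3.11.15 (pandas 2.3.3, numpy 2.4.6, matplotlib 3.10.9).

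The members and gene lists were chosen with earlier results of these data known, so counts over them are descriptions. Every member is accounted for; array values are given for the 8 largest differences between SI3 and SI1 past the threshold, for Mki67, Pcna, Top2a and Ccnb1, for members that moved against the majority, and for members set apart by diet in the same direction in at least 2 segments; those set apart in 1 segment were added after their values were seen. Of other lists, the genes with the largest differences each way past the threshold are named. Lgr5, Bcl6, S1pr2, Rgs13, Clps and dim markers were added later. The alternatives changed the pseudocount, filter, scaling, block, variance trend, probe set rule and fold, and left out pools and arrays.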

Additional observations from a re-analysis of the deposited data

Results flagged for a closer look

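The palm oil pool differed from the other pools in opposite directions at the ends of the intestine for 33 of 42 members. These had their highest signal of the 3 diets with HF-PO in SI1 and their lowest in SI3, against 14.9% of all genes. The difference was not tested, since each diet has 1 array per segment. The members set apart by palm oil in SI1 or SI3 are given as the HF-PO value less the average of the other 2 pools, on the scale of log2(signal + 16). Gins2 had 1.55 in SI1 and -0.24 in SI3. Esco2 had 1.56 in SI1 and -0.35 in SI3. Kif20b had 1.06 in SI1 and -0.36 in SI3. Uhrf1 had 0.25 in SI1 and -0.79 in SI3. These values are from the brightest probe set of each gene. A second, dimmer probe set of Uhrf1 had SI3 signals of 168.6 with HF-PO, 240.4 with HF-OO and 192.9 with HF-SO, a smaller difference.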

How the results depend on the processing

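Between SI3 and SI1, 24 members were higher, against 25.2% of all genes. The count was 8 with no filter, which doubles the probe sets tested, against 8.67%. Over the fits without a pool or an array it was 5 to 29, when 12.0% to 23.6% of all genes were higher. Without the replicate block it was 25, against 26.2% of all genes, and with an intensity trend 26, against 28.0%. The lower count of 1, against 20.4% of all genes, became 2 with an intensity trend, against 22.2%. It became 0 with probe sets not of type _x_at or _s_at, against 20.3%. Over the fits without a pool or an array it was 1 to 3, against 13.3% to 19.4%. Between SI3 and SI2, 10 were higher; the count was 16 with no replicate block, 18 with an intensity trend and 0 with no filter, against 12.9%, 15.2% and 1.92% of all genes, and 0 to 23 over the fits without a pool or an array, against 2.42% to 11.8%. Between SI2 and SI1, 1 was higher; the count was 0 with no filter, with each array centred on its median and with the mean of all probe sets, against 0.841%, 5.97% and 8.18% of all genes. It was 2 with an intensity trend or with probe sets not of type _x_at or _s_at, against 11.4% and 7.32%, and 0 to 8 over the fits without a pool or an array, against 1.12% to 6.40%. The lower count of 1 there became 2 with an intensity trend, against 10.6%, and 1 to 2 over those fits, against 1.46% to 7.33%. The F test's 20 became 4 with no filter, against 12.9% of all genes, and 4 to 27 over those fits, against 17.2% to 36.2%. The causes were not tested. For Pcna between SI3 and SI1, quantile normalization gave 0.03 and the fits without a pool -0.13 to 0.11, in place of -0.02; without the HF-PO pool it was 0.11. Between SI3 and SI1, Aurkb, Ccna2, Mcm4, Prim1 and Rrm1 passed under each setting tried for single genes, which did not include leaving out single arrays; so did Rrm2 between SI2 and SI1. For Aurkb there were 11 such settings and for the others 12, since both tested probe sets of Aurkb are of type _x_at or _s_at. Taken alone, second probe sets of Mcm4 and Prim1 did not pass between SI3 and SI1 (adjusted p = 0.464 and 0.0836). Those of Aurkb, Ccna2 and Rrm1 did. Members set apart by diet in SI3, 2, became 1 with a pseudocount of 64, with quantile normalization and with the mean of all probe sets, and 0 at 2-fold; those in SI1, 3, became 5 with probe sets not of type _x_at or _s_at. The 33 members highest with palm oil in SI1 and lowest in SI3 numbered 32 or 33 under the other settings, and 26 of 37 with the mean of all probe sets. The choice of probe set type, leaving out single arrays and the recounts of those 33 were added after the data were seen. The probe sets annotated to E2f1 alone and to Tyms alone were too dim to test.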

Other observations

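Genes that bring cells into the cycle also differed along the intestine, and their values are given with no explanation. By limma's moderated test, 25.2% of all genes were higher in SI3 than in SI1 and 20.4% were lower. Of 13 genes of the passage from rest into S phase, 8 were higher in SI3 than in SI1 and 1 was lower by this test. Ccnd1, cyclin D1, rose by 1.63 and Ccnd2, cyclin D2, by 1.25, while Skp2, which targets the inhibitor p27 for degradation, fell by 0.52. Of 12 tested inhibitors and exit genes, 6 were higher and 2 lower. Cdkn2b, the CDK4 and CDK6 inhibitor p15, rose by 1.14 and the repressor E2f4 by 0.65. Wee1, the kinase that holds back Cdk1, fell by 1.03, and the inhibitor Cdkn1c fell by 0.62.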
